A study of Mus musculus with 4 samples.

Results

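Interferon-inducible GTPases are large GTP-binding proteins that cells make in response to interferon and that act against viruses, bacteria and parasites inside the cell. The genes described here are 9 members of 3 families: the dynamin-like Mx genes (Mx1, Mx2), the guanylate-binding proteins (Gbp2, Gbp3, Gbp7) and the immunity-related GTPases, or IRGs (Irgm1, Irgm2, Igtp, Iigp1). They were taken by symbol, through their Ensembl identifiers in the GENCODE M21 annotation of GRCm38, and are 9 of the 34866 identifiers in the count table; each symbol matched 1 identifier.

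The libraries are bulk RNA-seq of mouse neurospheres, the floating clusters that neural stem and progenitor cells form in culture, started from E11.5 dorsal telencephalon (the future cerebral cortex) and kept for 5 days with basic FGF. The sh3F group (2 libraries) received 3 lentiviral hairpin vectors together: pCS-EG-shPhf21b against Phf21b, pLV-EG-shZfp7 against Zfp7, and pLV-EG-shZfp57 against Zfp57, each at a multiplicity of infection of 10. It is labelled as a knockdown of these genes. The shControl group (2 libraries) received 1 vector, CS-EG-shControl, at 30, and is labelled WT. Mouse strain and the control hairpin's target were not stated in the labels. Lentivirus was added to both groups, and the number of vectors and the vector backbone differed between them together with the hairpins, so these cannot be told apart. The labels name 1 vector per target. Nothing in the labels says that the 2 libraries of a group came from separate cultures, so every p-value here reflects library-to-library spread alone, and that spread may be technical. None of the 3 targeted genes was called by edgeR (1, Zfp57, had an unadjusted p under 0.05). Phf21b had 103 and 99 estimated counts in sh3F, against 156 and 98 in shControl (5.97 ± 0.678 CPM, counts scaled to a common library size with TMM factors, in sh3F and 7.30 ± 0.0823 CPM in shControl; SD, n = 2 each). Zfp57 had 201 and 143 in sh3F, against 314 and 157 in shControl, and Zfp7 had 36.8 and 15.0 in sh3F, against 36.1 and 30.2 in shControl. Log2 fold changes were -0.29 for Phf21b, -0.40 for Zfp57 and -0.37 for Zfp7 (adjusted p = 0.644, 0.341 and 0.800 by edgeR). In CPM, 2 of the 3 were lower in both sh3F libraries than in both control libraries, which 21.7% of all tested genes showed. The labelled knockdown was thus not past the test at the level of these transcripts.

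In background, Mx proteins block the multiplication of viruses such as influenza, guanylate-binding proteins assemble on membranes that enclose pathogens, and IRGs act on the same vacuoles, with Irgm1, Irgm2 and Igtp (also called Irgm3) known in mouse as regulators that keep effector IRGs such as Iigp1 inactive on the cell's own membranes. Type I interferon induces such genes through a promoter element, the interferon-stimulated response element (ISRE), which a complex containing Irf9 binds. Interferon gamma acts through another element, the gamma-activated site (GAS).

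The promoter letters of these elements are shown first. The letters were not used in choosing the genes. The genes were chosen as interferon-inducible, however, so frequent ISRE-type matches among them are not an independent result. RefSeq promoter windows (GRCm38.p6, 250 bases before to 50 after a transcription start) were matched for 6 of the 9 genes: Gbp2, Gbp3, Gbp7, Irgm1, Igtp and Irgm2. Windows for Mx1, Mx2 and Iigp1 were not used here. The 110 bases before the start are printed 5′ to 3′ on the gene's strand, with capitals marking every match to the ISRE-type motif (TTTC, any 2 bases, TTTC), searched on both strands, or to the GAS-type motif TTCNNNGAA, which reads the same on both.
Gbp3, chr3:142559934-142560043, plus strand: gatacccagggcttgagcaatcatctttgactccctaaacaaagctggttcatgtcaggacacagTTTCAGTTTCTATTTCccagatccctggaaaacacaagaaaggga
Irgm1, chr11:48871421-48871530, minus strand: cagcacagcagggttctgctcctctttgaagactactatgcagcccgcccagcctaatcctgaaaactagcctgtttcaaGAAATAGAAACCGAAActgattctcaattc
Gbp7, chr3:142530226-142530335, plus strand: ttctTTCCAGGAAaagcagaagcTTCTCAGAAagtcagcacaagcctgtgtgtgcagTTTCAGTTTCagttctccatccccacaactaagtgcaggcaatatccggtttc
Gbp2, chr3:142620553-142620662, plus strand: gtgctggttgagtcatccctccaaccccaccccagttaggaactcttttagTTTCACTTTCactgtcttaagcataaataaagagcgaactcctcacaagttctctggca
Igtp, chr11:58199446-58199555, plus strand: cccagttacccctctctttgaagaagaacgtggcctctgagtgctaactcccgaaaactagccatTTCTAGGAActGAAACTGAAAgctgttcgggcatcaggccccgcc
Irgm2, chr11:58214867-58214976, plus strand: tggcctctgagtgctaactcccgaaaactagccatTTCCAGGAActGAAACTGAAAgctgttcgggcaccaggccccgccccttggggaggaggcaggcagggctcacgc

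An ISRE-type match was present in 6 of these 6 genes, in each case within the 100 bases before the start, against 3.99% of all 27025 genes with a RefSeq window (3.44% of 32851 windows). Among other listed genes of these families 7 of 8 with a window held one too. Gbp3 and Irgm1 each held 2 such matches that overlap one another, Gbp3 with the first base 45 and 39 bases before the start and Irgm1 30 and 24 bases before it; a further Gbp3 window, for a later start, held none. A GAS-type match was present in 3 of the 6 genes (Gbp7, Igtp and Irgm2), against 9.55% of all genes with a window. In Igtp and Irgm2 the GAS-type match runs 2 bases ahead of the ISRE-type match, here on its reverse strand. That joint motif occurred in 5 of 32851 windows, and all 5 belong to IRG genes: Igtp, Irgm2, Gm12185, Tgtp1 and Tgtp2. A match is a run of letters and not evidence that a factor was bound in these cells.

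**Figure D1:**
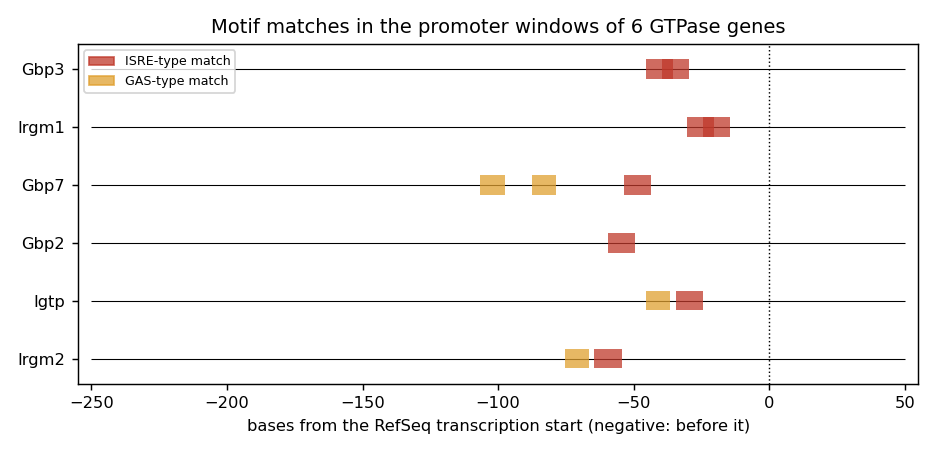
Positions of ISRE-type (red) and GAS-type (amber) matches in the promoter windows of 6 GTPase genes, in bases from the RefSeq transcription start (dotted line; horizontal lines span each window). Every one of the 6 genes holds an ISRE-type match within 100 bases before its start.

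In these neurosphere libraries the GTPases were expressed at low levels, and 3 of the 9 rose in sh3F: Mx2 6.65-fold, Gbp3 5.44-fold and Irgm1 3.10-fold. Mx1 and Gbp7 were tested and did not pass, and Gbp2, Irgm2, Igtp and Iigp1 had too few counts to be tested. The 9 genes together had 267 and 220.3 estimated counts in sh3F replicates 1 and 2, against 111 and 95.1 in shControl replicates 1 and 2. Library totals were 17901386 and 15170491 counts in sh3F, and 20779211 and 14694387 in shControl. The sh3F libraries thus held more GTPase counts than either control library at similar totals.

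A gene was tested if it passed edgeR's filter on low counts (a minimum count of 10), which 14050 genes did, and was called at an adjusted p under 0.05 (quasi-likelihood test, two-sided, Benjamini-Hochberg over all 14050). Over all tested genes 0.541% were called higher and 0.826% lower. Of the 5 tested GTPases 3 were called higher, 2 were not called and 0 were called lower, and their median log2 fold change was 1.63, against -0.0085 over all tested genes. The control libraries of Mx2 and Gbp3 hold fewer than 10 counts each, so both genes passed the filter through sh3F alone; the count and median over tested genes are therefore descriptions. The genes were also chosen with earlier results of these data known.

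**Figure D2:**
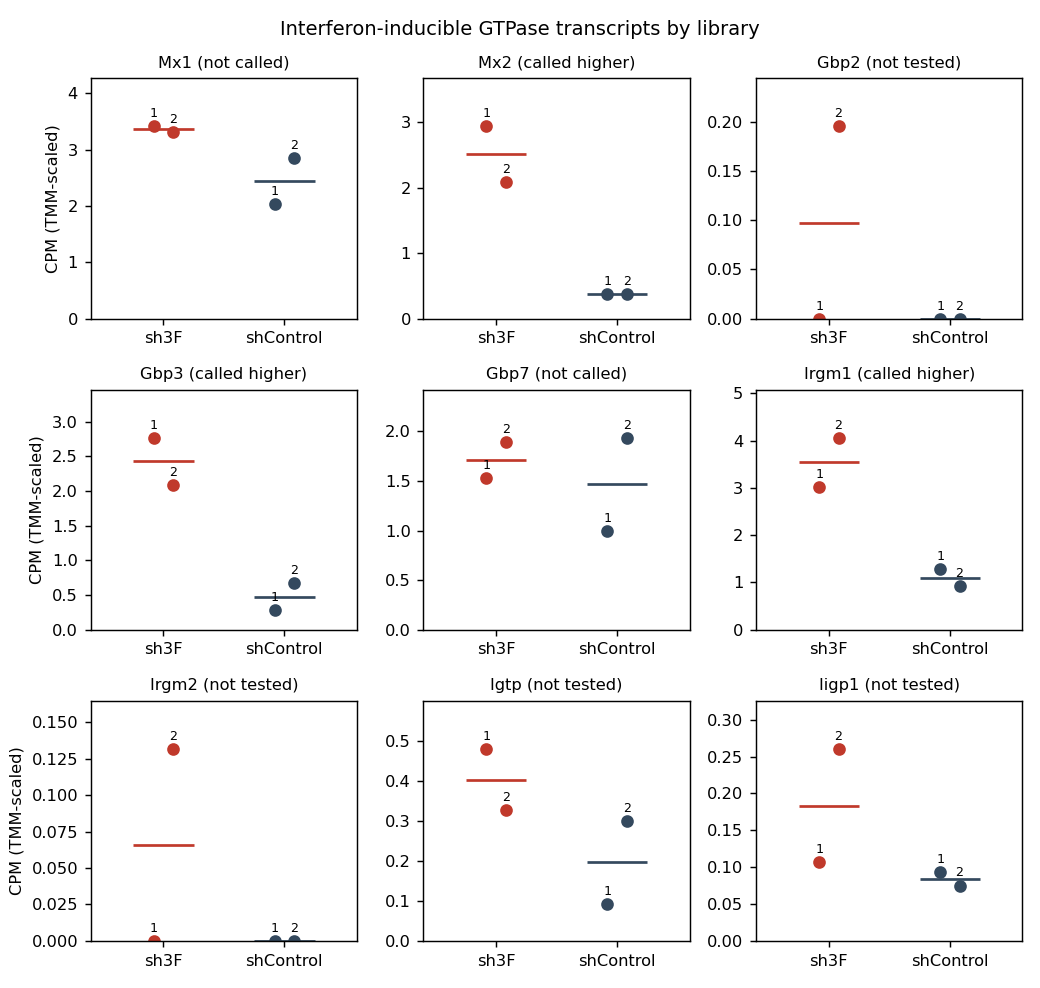
Level of each of the 9 genes in every library, in CPM; red points are sh3F and dark points shControl, numbered by replicate, bars are group means, and each vertical axis starts at 0 with its own range. Both sh3F points lie above both shControl points for Mx1, Mx2, Gbp3, Irgm1, Igtp and Iigp1, and the groups overlap for Gbp2, Gbp7 and Irgm2. Of all tested genes 19.6% showed such a separation, a share that does not cover Igtp and Iigp1, which were not tested. For Iigp1 replicate 1 held 2 counts in each group, and these points differ by scaling only.

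Among the Mx genes, Mx2 rose. Mx2 (ENSMUSG00000023341.14, chromosome 16, 97535308 to 97560900, plus strand) encodes in rodents a cytoplasmic antiviral GTPase, and is annotated as a polymorphic pseudogene in GENCODE M21 and as a transcribed pseudogene in RefSeq's C57BL/6J assembly. It had 55 and 32 estimated counts in sh3F replicates 1 and 2, against 8 and 5 in shControl replicates 1 and 2. Both sh3F libraries stood several times above both control libraries, and the groups did not overlap. In CPM it averaged 2.51 ± 0.599 in sh3F and 0.374 ± 0.00286 in shControl (SD, n = 2 each). The log2 fold change of 2.73 had an SE of 0.49 and a 95% interval of 1.76 to 3.70 (adjusted p = 0.000183, edgeR), and ranked 19 among the 76 genes called higher. The call was lost without sh3F replicate 1, where the log2 fold change was 2.46 (adjusted p = 0.173), and it held in 10 of 11 alternatives.

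Mx1 (ENSMUSG00000000386.14, chromosome 16, 97447035 to 97462907, minus strand), whose product is a nuclear GTPase that blocks influenza virus in mouse strains with an intact allele, did not pass the test. RefSeq's C57BL/6J assembly lists it as a transcribed pseudogene and GENCODE M21 as protein-coding. Mx1 had 64.0 and 50.9 estimated counts in sh3F, against 44 and 38 in shControl. It averaged 3.36 ± 0.0706 CPM in sh3F and 2.45 ± 0.573 CPM in shControl (SD, n = 2 each). Both sh3F libraries were above both control libraries in CPM, a separation in this direction that 19.6% of all tested genes showed. The fold was 1.40 with a 95% interval of 0.917 to 2.14 (0.49 on the log2 scale, SE 0.31, adjusted p = 0.57 by edgeR), an interval that includes no difference. The Mx1 log2 fold change lay between 0.24 and 0.73 over the 11 alternatives and passed in 0 of them.

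Of the distinct 31-base words in Mx2 transcripts, 7.96% also occur in Mx1, where reads could be split between the genes. Within a library, the ratio of Mx2 to Mx1 counts was 0.859 and 0.629 in sh3F replicates 1 and 2, against 0.182 and 0.132 in shControl replicates 1 and 2. Mx1 had more counts than Mx2 in every library, by a smaller margin in both sh3F libraries. This ratio does not depend on scaling, and its group difference was not tested, since with 2 libraries a group the smallest p that an exact two-sided permutation test allows is 0.333.

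Of the guanylate-binding protein genes, which lie beside one another on chromosome 3, Gbp3 rose and Gbp7 did not pass. Gbp3 (ENSMUSG00000028268.14, chromosome 3, 142560026 to 142573209, plus strand) had 52 and 32 estimated counts in sh3F replicates 1 and 2, against 6 and 9 in shControl replicates 1 and 2. The groups did not overlap, and the lower sh3F library was well above the higher control library. It averaged 2.43 ± 0.486 CPM in sh3F and 0.477 ± 0.281 CPM in shControl (SD, n = 2 each). The log2 fold change of 2.44 had an SE of 0.49 and a 95% interval of 1.48 to 3.40 (adjusted p = 0.00117, edgeR). Gbp3 was past the threshold in 9 of 11 alternatives. The call was lost without shControl replicate 1 (log2 fold change 1.84, adjusted p = 0.0513) and without sh3F replicate 1 (2.20, adjusted p = 0.277). The log2 fold change was 3.11 without shControl replicate 2.

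Gbp7 (ENSMUSG00000040253.15, chromosome 3, 142530342 to 142550149, plus strand), whose protein has been tied in mouse macrophages to oxidative killing of bacteria, had 28.8 and 29.0 estimated counts in sh3F, against 21.5 and 25.8 in shControl. In CPM it measured 1.53 and 1.89 in sh3F, against 1.00 and 1.94 in shControl, and the groups overlapped. The fold was 1.19 with a 95% interval of 0.673 to 2.11 (0.25 on the log2 scale, SE 0.42, adjusted p = 0.88 by edgeR), and it turned to a log2 fold change of -0.19 without shControl replicate 1. Of the 31-base words of Gbp7, 14.7% occur in another gene, mostly Gm43802, which overlaps 11.3% of its exonic bases, so its counts are less certain. The within-library ratio of Gbp3 to Gbp7 counts was 1.81 and 1.10 in sh3F, against 0.279 and 0.349 in shControl. Gbp3 thus exceeded Gbp7 in both sh3F libraries and was below it in both control libraries; the difference was not tested.

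Gbp2 (ENSMUSG00000028270.12, chromosome 3, 142620602 to 142638008, plus strand), which is among the guanylate-binding proteins that gather on parasite vacuoles in mouse cells, was close to undetected. It had 0 and 3 estimated counts in sh3F, against 0 and 0 in shControl. A count of 0 over both control libraries allows a level of up to 0.0860 CPM (3 counts over the group, counting error only), and no fold is given because both groups are at or under that floor of counts.

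Of the IRG genes on chromosome 11, Irgm1 rose. Irgm1 (ENSMUSG00000046879.7, chromosome 11, 48861968 to 48871683, minus strand), which in mouse is needed for resistance to mycobacteria and takes part in autophagy, had 56.6 and 62.4 estimated counts in sh3F replicates 1 and 2, against 27.5 and 12.3 in shControl replicates 1 and 2. Both sh3F libraries were above both control libraries, and the control libraries differed between themselves by more in counts than in CPM. It averaged 3.54 ± 0.739 CPM in sh3F and 1.10 ± 0.249 CPM in shControl (SD, n = 2 each). The log2 fold change of 1.63 had an SE of 0.36 and a 95% interval of 0.92 to 2.35 (adjusted p = 0.00488, edgeR). The call was lost without sh3F replicate 2 (log2 fold change 1.43, adjusted p = 0.251) and with DESeq2 (1.67, adjusted p = 0.103), and held in 9 of 11 alternatives. Only 2.88% of its 31-base words occur in another gene.

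The other IRG genes were at a few counts per library. Igtp (ENSMUSG00000078853.8, chromosome 11, 58199556 to 58207591, plus strand) had 9 and 5 estimated counts in sh3F, against 2 and 4 in shControl. The sh3F libraries were above the control libraries, by 1 count in the closest pair. The ratio of summed counts, scaled by library, was 2.38 with a 95% counting interval of 0.86 to 7.57, which includes no difference. Igtp overlaps Irgm2 on the same strand and shares 15.9% of its 31-base words with it.

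Irgm2 (ENSMUSG00000069874.7, chromosome 11, 58199618 to 58222782, plus strand) had 0 and 2.02 estimated counts in sh3F, against 0 and 0 in shControl, and no fold is given. Iigp1 (ENSMUSG00000054072.11, chromosome 18, 60376027 to 60392634, plus strand), the effector IRG known for binding parasite vacuoles in mouse cells, had 2 and 4 estimated counts in sh3F, against 2 and 1 in shControl. Its counting ratio was 2.04 with a 95% interval of 0.436 to 12.6. At this depth no difference was detectable for these genes. With the filter on low counts removed, the 4 genes entered the test and had edgeR adjusted p-values between 0.845 and 0.863, so 0 of 4 passed; 0 of 4 had an unadjusted p under 0.05, the lowest being 0.213.

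The order of the levels was compared per length, as mean CPM per kilobase of merged exons. In sh3F the order was Mx1 at 0.889 ± 0.0186, Gbp3 at 0.744 ± 0.149, Mx2 at 0.694 ± 0.166, Irgm1 at 0.61 ± 0.127 and Gbp7 at 0.305 ± 0.0448 (SD, n = 2 each). Among these the neighbouring pairs from Mx1 to Irgm1 differed by about their SD or less, while Gbp7 lay further below Irgm1. In shControl the order was Mx1 at 0.647 ± 0.152, Gbp7 at 0.262 ± 0.118, Irgm1 at 0.19 ± 0.0429, Gbp3 at 0.146 ± 0.0861 and Mx2 at 0.103 ± 0.000791. There Mx1 stood apart, and the neighbours below it did not differ beyond the larger SD of each pair. Gbp7 thus came last of these 5 in sh3F, and next after Mx1 in shControl. Igtp followed at 0.199 ± 0.0538 in sh3F and 0.0973 ± 0.0726 in shControl, and Iigp1, Gbp2 and Irgm2 were below 0.04 in both groups. The 3 genes that rose were at or under 0.19 in shControl.

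**Figure D3:**
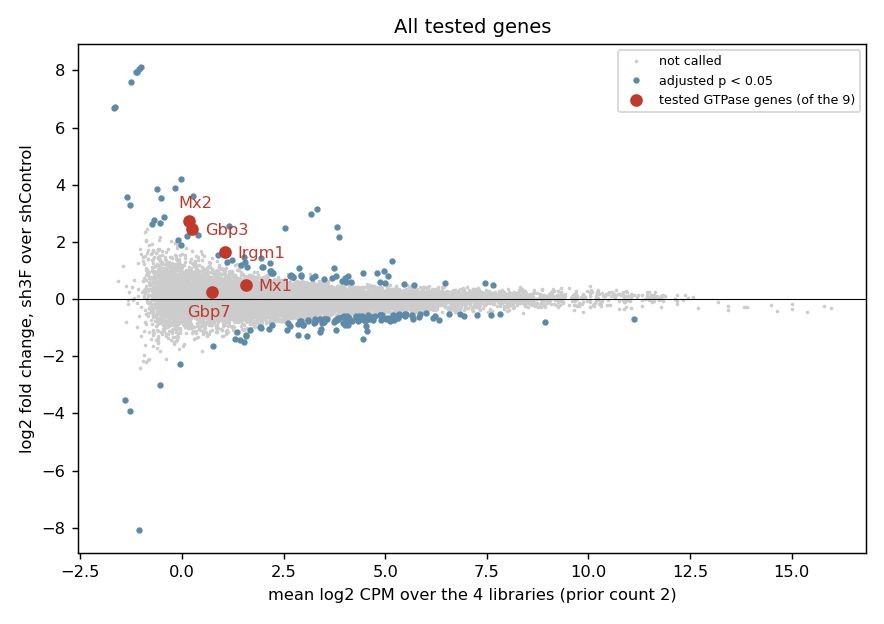
Log2 fold change (sh3F over shControl) against mean log2 CPM for all 14050 tested genes; blue points have an adjusted p under 0.05 and red points are the 5 tested GTPases. Mx2, Gbp3 and Irgm1 lie above the grey cloud at log2 fold changes of 2.73, 2.44 and 1.63, and Mx1 and Gbp7 lie within it.

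Of further family genes on a fixed list, which does not hold every relative, few could be tested, and none of these passed. Of 22 further listed genes 21 were in the table, 16 had any count, 5 were tested and 0 were called. Over all tested genes 0.541% were called higher, so 0 calls of 5 is near that share. Gbp5, which promotes inflammasome assembly in mouse macrophages, measured 39.0 and 19 estimated counts in sh3F, against 14 and 14 in shControl, and both sh3F libraries were above both control libraries in CPM. Its log2 fold change was 1.02 (SE 0.48, unadjusted p = 0.0353, edgeR adjusted p = 0.361), and was 0.57 without sh3F replicate 1 and 0.67 without shControl replicate 1. Gbp4 measured 51.5 and 37.2 estimated counts in sh3F, against 23.9 and 34.8 in shControl, with overlapping CPM and a log2 difference of 0.53 (adjusted p = 0.622 by edgeR) that was -0.03 without shControl replicate 1. The other 3 tested genes of the list, F830016B08Rik, Gm4841 and Gm5431, had log2 fold changes between -0.42 and -0.09. Of the 31-base words of Gm5431, 36.7% occur in 9930111J21Rik1, which lies near Irgm1 and was not on the list. There 9930111J21Rik1 and 9930111J21Rik2 had log2 fold changes of 0.72 and 0.55 (edgeR adjusted p = 0.687 and 0.210). The summed level of the 21 genes was 8.45 and 6.89 CPM in sh3F, against 4.44 and 7.14 CPM in shControl, which overlap. That of the 9 genes was 14.3 and 14.4 CPM in sh3F, against 5.16 and 7.14 CPM in shControl. The 9 genes were chosen with earlier results of these data known, so no contrast is drawn from these sums. Gbp2b, Tgtp1 and Tgtp2 had 0 counts in every library.

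**Figure D4:**
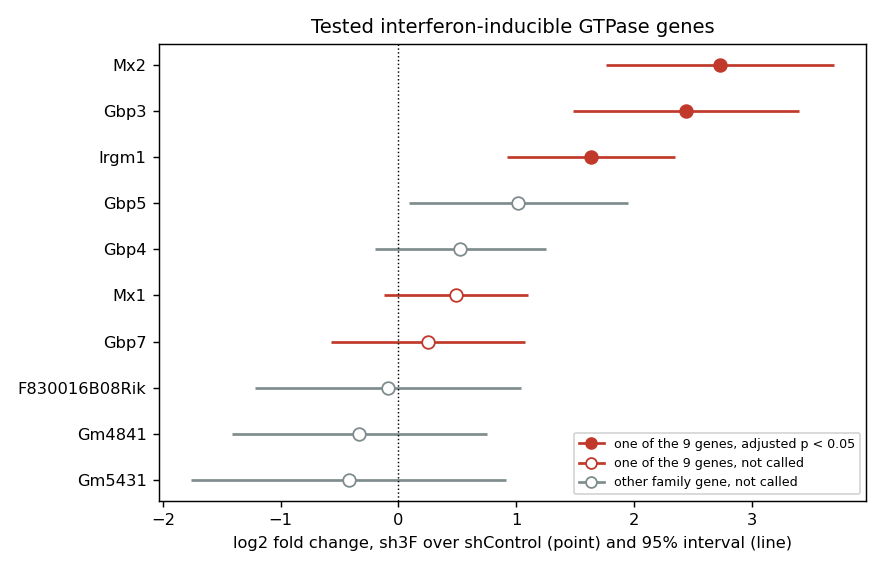
Log2 fold changes (sh3F over shControl, points) with 95% intervals (lines) of the 10 tested genes among the 9 and the further listed family genes. Red marks the genes among the 9, grey the other listed family genes, and filled points an adjusted p under 0.05. The intervals of Mx2, Gbp3 and Irgm1 lie wholly above 0.9, while those of Mx1, Gbp7 and Gbp4 include 0.

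Relatives of these proteins that are not known for induction by interferon gave 0 calls by edgeR of 14 tested, and 1 at an unadjusted p under 0.05, with a median log2 fold change of -0.17. In CPM 6 of the 14 were lower in both sh3F libraries than in both control libraries and 2 were higher. Of all tested genes 21.7% and 19.6% showed this. Since 0.541% of all tested genes were called higher and 0.826% lower, 0 calls in a list of this size is near the share over all genes, and the same holds for the next list. The mitochondrial fission dynamin Dnm1l measured 26.8 ± 5.87 CPM in sh3F and 30.6 ± 2.86 CPM in shControl, and the atlastin Atl2 17.5 ± 1.43 CPM in sh3F and 19.3 ± 0.313 CPM in shControl (SD, n = 2 each). Of 16 genes of the autophagy machinery, which IRGs and guanylate-binding proteins need in order to be placed on vacuoles, 16 were tested and 0 were called (2 at an unadjusted p under 0.05), with a median of -0.15. In CPM 9 of the 16 were lower in both sh3F libraries than in both control libraries and 0 were higher, a lower share above the 21.7% of all tested genes. Gabarap, a ubiquitin-like protein of that machinery, measured 376 ± 7.85 CPM in sh3F and 445 ± 18.0 CPM in shControl, and Gabarapl2 296 ± 10.9 CPM in sh3F and 325 ± 6.92 CPM in shControl.

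Upstream of the GTPases, 1 of 15 tested genes of the JAK, STAT and IRF set rose and 0 fell. Irf9, a DNA-binding subunit of the complex that recognises the ISRE, had 123 and 91.1 estimated counts in sh3F, against 55.3 and 26 in shControl, with no overlap (1.44 on the log2 scale, SE 0.26, adjusted p = 0.000226 by edgeR), and it passed in 11 of 11 alternatives. Of 17 genes for interferons and their receptors 5, all receptor chains, were tested and 0 were called, also at an unadjusted p under 0.05. Ifngr2 measured 9.76 ± 2.63 CPM in sh3F and 10.8 ± 0.497 CPM in shControl, and Ifnar2 8.87 ± 0.632 CPM in sh3F and 7.11 ± 1.24 CPM in shControl. The interferon genes themselves were at 0 to 6 counts per library; Ifnb1 had 2 and 1 counts in sh3F, against 0 and 0 in shControl. Ifnk ran the other way, with 0 and 0 counts in sh3F, against 6 and 1 in shControl, as did Ifng with 0 and 0 in sh3F, against 1 and 1 in shControl. None of the interferon genes was tested.

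Of 30 other interferon-stimulated genes 19 were tested, of which 6 rose, 0 fell and 13 did not pass (0.541% of all tested genes were called higher and 0.826% lower), with a median log2 fold change of 1.18. This list was chosen with its earlier result known, and Usp18, which rose, and Oas1a, which did not pass, hold fewer than 10 counts in each control library and passed the filter through sh3F alone, so the count and median are descriptions. The 4 with the smallest p were Ifi27, Rtp4, Bst2 and Ifitm3, with log2 fold changes of 2.99, 3.16, 2.48 and 1.34 (edgeR adjusted p = 3.44e-21, 2.05e-16, 2.13e-14 and 7.22e-11). Mx2 and Gbp3 had log2 fold changes near that of Bst2, with SEs of 0.49 each, against 0.23 for Bst2.

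By profile over the 4 libraries, the genes nearest to the summed GTPase counts were Cpeb3, Gm20763, Gm42420, Ifitm3 and Napsa, out of 12644 genes ranked. Nearness was the root mean square difference in log2 CPM, centred on each gene's mean, and ran from 0.03 for Cpeb3 to 0.10 for Napsa. Of these 5 genes Ifitm3 was called and 4 were not. Of the 31-base words of Gm20763 and Gm42420, 70.4% and 90.7% occur in other genes, so their counts are uncertain.

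Within 200 kb of any of the 9 genes the table held 55 other genes, of which 24 were tested and 0 were called by edgeR (2 at an unadjusted p under 0.05), which is near the 0.541% called higher and 0.826% called lower over all tested genes. Within that distance of Irgm2 and Igtp the 7 tested genes, among them Larp1, Cnot8 and Gemin5, had edgeR adjusted p-values between 0.564 and 0.986. The 24 tested neighbours include family genes already counted above, namely Gbp5, Gm5431, Gm4841 and F830016B08Rik, so they are not a set apart from the family. The smallest adjusted p among the neighbours was 0.210 by edgeR, for 9930111J21Rik2 near Irgm1.

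Library quality and other cells were read beside these results. Of 12 markers of neural progenitors 12 were tested and 0 were called, with 3 at an unadjusted p under 0.05 by edgeR. In CPM 6 were lower in both sh3F libraries than in both control libraries and 1 was higher. Of all tested genes 21.7% and 19.6% showed this. Over all tested genes 0.541% were called higher and 0.826% lower, so 0 calls in a list of this size is near that share. The same holds for the myeloid, endothelial and mesenchymal lists below. Fabp7 measured 21434 ± 1885 CPM in sh3F and 24998 ± 3617 CPM in shControl, and Vim 329 ± 10.8 CPM in sh3F and 283 ± 33.7 CPM in shControl. Fabp7 was called lower without shControl replicate 1 (log2 fold change -0.36, edgeR adjusted p = 0.0344). Of 8 neuronal markers, all tested, 2 fell (0.826% of all tested genes were called lower), and their summed level was 650 and 649 CPM in sh3F, against 877 and 793 CPM in shControl, with no overlap. Tubb3 (log2 fold change -0.72, edgeR adjusted p = 0.000445) lost its call in 3 of 11 alternatives, library-size scaling (adjusted p = 0.0728) and leaving out either sh3F library. Nsg2 (-0.56, adjusted p = 0.0144) lost it in 4 of 11, library-size scaling (adjusted p = 0.224) and leaving out shControl replicate 1 or either sh3F library. Of markers of myeloid cells, which respond strongly to interferon, 16 of 16 had a count in at least 1 library. Csf1r had 1 and 2.57 estimated counts in sh3F, against 0 and 0 in shControl. Aif1 ran the other way, with 6 and 6 in sh3F, against 11 and 13 in shControl. Neither gene was tested. The summed level of the 16 myeloid markers was 45.3 and 39.1 CPM in sh3F, against 42.0 and 44.8 CPM in shControl. By edgeR 0 of 10 tested were called (2 at an unadjusted p under 0.05). In CPM 1 of the 10 was higher and 2 were lower in both sh3F libraries than in both control libraries. Among them Lyz2 measured 11.2 ± 2.14 CPM in sh3F and 15.4 ± 1.65 CPM in shControl, and Ptprc 11.6 ± 1.48 CPM in sh3F and 7.76 ± 3.39 CPM in shControl. Ptprc passed with limma-voom (log2 fold change 0.73, adjusted p = 0.0460) and without shControl replicate 2 (1.13, adjusted p = 8.62e-05), and in 0 of the other 9 alternatives. Summed endothelial markers were 11.2 and 9.29 CPM in sh3F, against 10.7 and 12.6 CPM in shControl, and mesenchymal markers 56.5 and 58.1 CPM in sh3F, against 62.3 and 60.3 CPM in shControl, with 0 called in either (1 in each at an unadjusted p under 0.05). Red blood cell markers summed to 42.2 and 40.0 CPM in sh3F, against 27.3 and 29.4 CPM in shControl. Of these 6 were tested, 1 was called higher and 3 had an unadjusted p under 0.05 by edgeR, with a median log2 fold change of 0.56. In CPM 4 of the 6 were higher in both sh3F libraries than in both control libraries, against 19.6% of all tested genes. The called gene was Hbb-y (log2 fold change 0.63, edgeR adjusted p = 0.0399), a call lost in 5 of 11 alternatives. Over all tested genes 0.541% were called higher. Lymphocyte markers summed to 1.85 and 2.57 CPM in sh3F, against 0.815 and 1.62 CPM in shControl, with Nkg7 at 0. Mitochondrially encoded transcripts made up 26.6% and 28.5% of all counts in sh3F, against 30.3% and 33.9% in shControl. The part of these other cells in the GTPase results was not tested, and in such bulk libraries more expressing cells and more RNA per cell cannot be told apart.

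**Figure D5:**
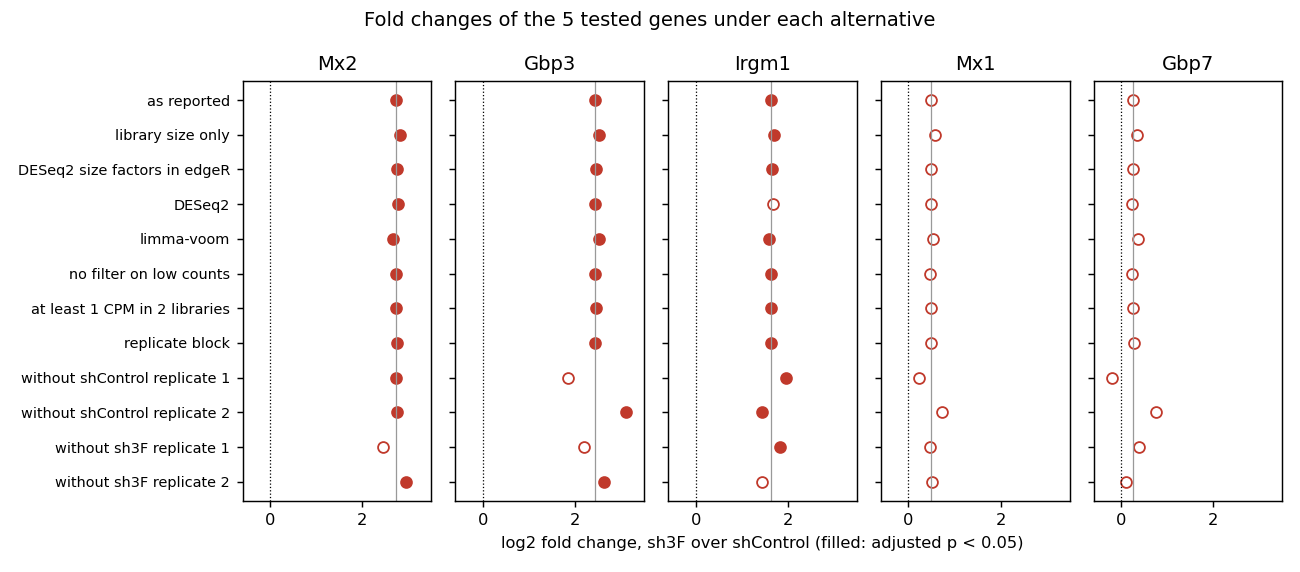
Log2 fold changes of the 5 tested GTPases under the reported fit and 11 alternatives (rows), with filled points where the adjusted p is under 0.05 and a grey line at the reported value. Mx2, Gbp3 and Irgm1 stay above 1.4 throughout and lose the call mainly when 1 library is left out, and Gbp7 turns below 0 without shControl replicate 1.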

How the data were processed

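Per the submitters' processing notes, Salmon and the mouse build GRCm38 (mm10) underlie the estimated counts that the authors deposited, which are per Ensembl gene and not normalized; neither Salmon's version nor the annotation release is stated. The kit was NEBNext Ultra II RNA, on total RNA, per the labels; strandedness is not stated. All 4 libraries carry 1 batch label. Identifiers were matched without version to GENCODE M21, which named 34652 of 34866. Between 23.1% and 25.1% of a library's values were not whole, and counts were rounded for testing. Tests used edgeR 4.0.16 in R 4.3.3: TMM scaling, filterByExpr (minimum count 10), a robust quasi-likelihood fit with group as the only term, and a threshold of 0.05. The SE is the log2 fold change divided by the square root of F, and intervals of fold changes are 1.96 SE. Levels are CPM on the TMM scale. Counting ratios carry exact (Clopper-Pearson) 95% intervals that cover counting error only. Shared 31-base words were counted in M21 transcripts on both strands. The alternatives were library-size scaling, DESeq2 1.42.0 and its size factors, limma-voom (limma 3.58.1), 2 other filters, a replicate block and leaving out each library.

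The genes, gene lists and tests were chosen with earlier results of these data known. All 9 genes are named, with the 3 targeted genes and, by list, the 4 called genes with the smallest p at most, or 2 by level where none was called, and the 5 nearest by profile; endothelial, mesenchymal and lymphocyte markers are given as sums. Further genes named (other family members, interferons, other interferon-stimulated genes, a myeloid marker, neighbours and promoter matches) were chosen after their values were seen. No list was tested as a set.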

Additional observations from a re-analysis of the deposited data

How the results depend on the processing

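Of the 9 GTPases 3 were called higher in the reported fit, between 1 and 3 over the fits that leave out 1 library, and 2 with DESeq2; 0 were called lower in any of the 11 alternatives. The call of Mx2 was lost without sh3F replicate 1, that of Gbp3 without shControl replicate 1 and without sh3F replicate 1, and that of Irgm1 without sh3F replicate 2 and with DESeq2. In a fit without 1 library the lone library of a group is assumed to vary like the other group. Over all genes 192 were called, with 69 under DESeq2, 105 with scaling by library size alone and 44 to 614 without 1 library. Higher calls numbered 76, with 30 under DESeq2 and 27 to 280 without 1 library, and lower calls 116, with 39 under DESeq2, 28 by library size alone and 17 to 334 without 1 library. The direction turned without 1 library for Gbp7 (-0.19), Gbp4 (-0.0341), Dnm1l (0.0141), Ifngr2 (0.10) and Zfp7 (0.0275), none of which was called; their values over those fits reached 0.75, 1.21, -0.43, -0.46 and -0.98 at the other end. The cause was not tested.

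The labels number replicates alike in both groups without saying that a number marks a shared culture. Over 14050 genes the replicate differences of the groups had a correlation of -0.03, so the numbers were not taken as pairs. With a replicate block 172 genes were called, 75 higher and 97 lower, and the same number of GTPases, 3, with log2 fold changes of 2.75, 2.44 and 1.63 for Mx2, Gbp3 and Irgm1. Of the other genes named, Hbb-y lost its call under the block (adjusted p = 0.0529).

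Depth limits the low genes: Gbp2, Irgm2, Igtp and Iigp1 held at most 9 counts in a library.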

Other observations

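The ISRE-type letters of the GTPase promoters were looked for in all tested genes, as a description with no test, chosen after the results were seen. Of 10558 tested genes with a RefSeq window 38 were called higher, or 0.36%, and 80 lower, or 0.758%. Of the 389 that hold an ISRE-type match 9 were called higher, or 2.31%, and 2 lower, or 0.514%. The 9 were Gbp3, Irgm1, Bst2, Ifitm3, Isg15, Lgals9, Spp1, Tm4sf1 and Hbb-y, of which Gbp3 and Irgm1 are GTPases and Hbb-y is an embryonic globin. Of the 880 genes with a GAS-type match 5 were called higher, or 0.568%, and 3 lower, or 0.341%. The median log2 fold change of the 389 was 0.02, against -0.02 over the 10558. Gbp7 holds an ISRE-type match 53 bases before its start and was not called.

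The 5 genes with the joint GAS-type and ISRE-type motif, Igtp, Irgm2, Gm12185, Tgtp1 and Tgtp2, were all below the filter on low counts, so 0 were tested. Tgtp1 and Tgtp2 had 0 counts in every library, and 83.2% of the 31-base words of Tgtp1 occur in Tgtp2, which makes any count of either uncertain.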
